A study of Mus musculus with 10 samples.

Results

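The kinesin superfamily genes were described in RNA from nonclassical monocytes, and the kinesins of cell division were set beside those of intracellular transport. The members are 40 mouse genes with a Kif or Kifc symbol, found among the 52636 genes of the deposited count table through their Ensembl identifiers. They were sorted by textbook role into 13 mitotic kinesins, 17 transport kinesins and 10 others, which include ciliary and developmental kinesins and Kif2a. The kinesin genes Cenpe, Kifc5b and Kif28 are outside this list.

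The study sorted these cells from the bone marrow of mice at a purity of 98%, took 5000 to 10000 cells per sample and sequenced their RNA. There were 5 libraries of the genotype LAIR1+/+ (WT) and 5 of the genotype LAIR1-/- (LAIR1KO), with no treatment in either group. LAIR1 is a collagen receptor that dampens the activation of white blood cells, and the comparison asks which transcripts differ in its absence. The sources used here do not give the age, sex or strain of the mice, the kind of deletion, or whether each library is a separate animal. The p-values therefore measure library-to-library spread, which may be technical.

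Kinesins are motor proteins that use ATP to move along microtubules or to take their ends apart. Mitotic kinesins build the spindle, move chromosomes and complete cytokinesis, and their transcripts accumulate in late cell cycle phases. Transport kinesins carry vesicles, endosomes, mitochondria and other cargo in cells that need not divide, and nonclassical monocytes are largely nondividing cells that patrol the vessel wall.

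Total counts ran from 12106209 to 15356924 per library, and 13469 genes were abundant enough to test. Levels are given in CPM, counts scaled to a common library size by the trimmed mean of M-values (TMM). Lair1 held 4230 to 5579 counts in the WT libraries and 0 to 10 in the LAIR1KO libraries, or 374 ± 27.7 against 0.226 ± 0.276 CPM (SD, n = 5 each). The exact permutation test, two-sided, gave p = 0.00794, which is as low as 5 against 5 can go, and each library matched its genotype. LAIR1KO replicates 4 and 5 stood above the other LAIR1KO libraries in the summed level of the mitotic kinesins. Leaving both out lowered the count of all genes past the threshold from 914 to 376, and values without them are given where a result rests on them. In bulk RNA a larger share of cells of one type and more transcript per cell cannot be told apart.

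Most mitotic kinesins rose in LAIR1KO, while the transport kinesins other than Kif17 did not pass the test. A gene was called at an adjusted p under 0.05 (edgeR quasi-likelihood test, Benjamini-Hochberg adjustment over all genes tested), and 6.79% of all tested genes were called, 5.11% as higher and 1.68% as lower in LAIR1KO. Of the 13 mitotic kinesins 11 were tested, and 10 were higher and 0 lower. Of the 17 transport kinesins 14 were tested, and 1 was higher and 0 lower. Of the 10 others 4 were tested and 0 were called. The median log2 fold change, LAIR1KO minus WT, was 1.38 over the 11 mitotic kinesins tested and -0.12 over the 14 transport kinesins, beside -0.0018 over all genes tested. Scaling the libraries by their totals instead turned the transport median to 0.0227, but it also moved the median of all genes to 0.13. Values of WT and LAIR1KO were fully apart for 8 of the 10 mitotic kinesins called and for Kif17, beside 5.61% of all tested genes that were higher without overlap. All 11 tested mitotic kinesins passed the filter on low counts in every WT library as well as in every LAIR1KO library, so none of them was tested only because it was high in LAIR1KO.

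**Figure D1:**
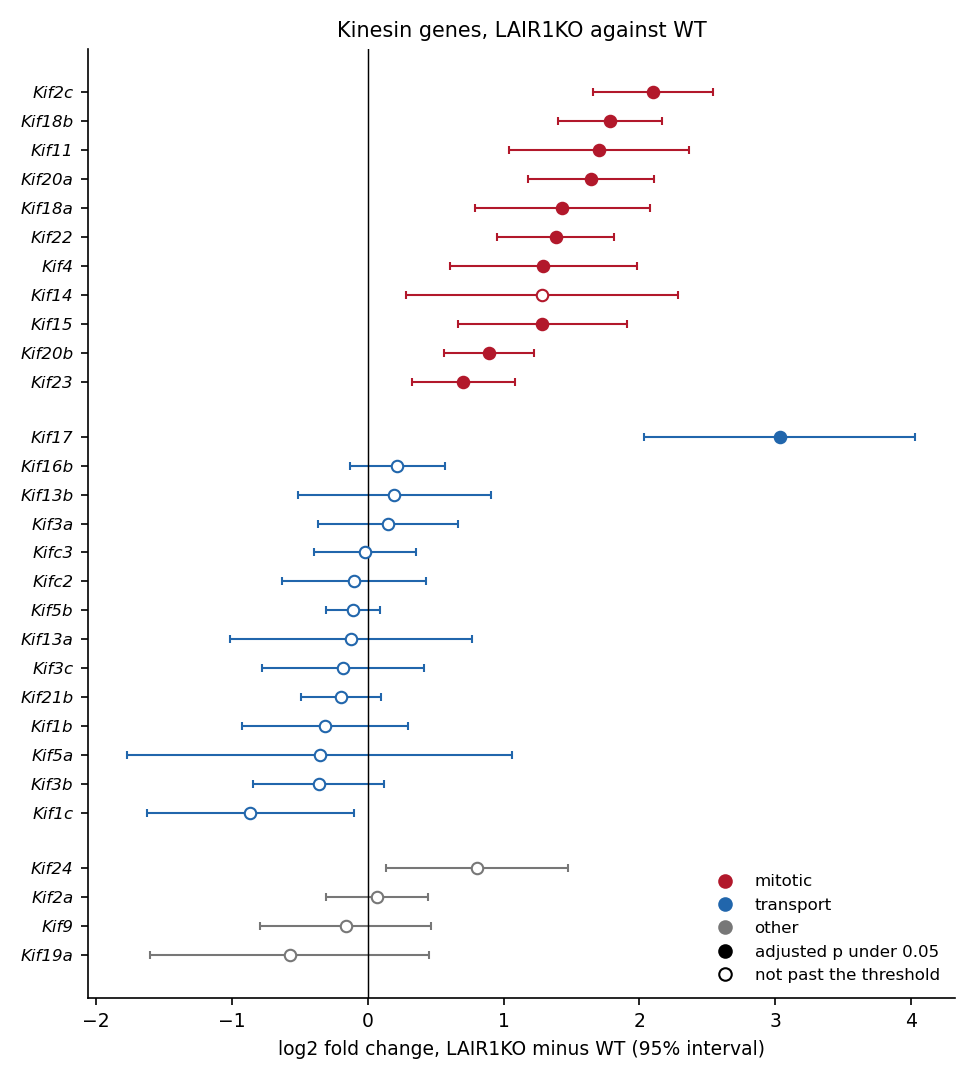
Log2 fold change (LAIR1KO minus WT, x axis) with its 95% interval for the 29 kinesin genes tested, ordered within the mitotic, transport and other roles; filled points passed the threshold. The 11 mitotic kinesins lie between 0.70 and 2.10, while the transport kinesins other than Kif17 lie between -0.86 and 0.22.

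Leaving out LAIR1KO replicates 4 and 5 together left 6 mitotic kinesins called, and leaving out WT replicates 1 and 4 together left 5. Kif4, Kif15, Kif18a and Kif23 lost their call in both of those fits, and Kif11 lost it in the second. Kif2c, Kif18b, Kif20a, Kif20b and Kif22 passed in every alternative run.

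Most promoter windows of the mitotic kinesins held a short motif. RefSeq promoter windows (GRCm38.p6, 250 bases before to 50 bases after the start) were available for 32 of the 40 members, and a gene with several starts had a window for each. The letters TTTGAA, the core of the cell cycle genes homology region (CHR), an element known in genes transcribed late in the cell cycle, were searched on both strands. They stood in 10 of 12 mitotic windows, 1 of 13 transport windows and 2 of 11 windows of the other kinesins, beside 17.9% of 32851 windows of all genes. Within 40 bases of the start they stood in 8 of the 12 mitotic windows, in 0 of the 13 transport windows and in 4.16% of all windows. The 13 transport windows cover 11 of the 17 transport kinesins, and 9 of the 10 called mitotic kinesins had a window. In Kif2c the match began 103 bases before the start, and Kif18a held no match. Kifc1, among the 8, was too low to be tested for a difference. A match is a description of letters and not of a bound site. The 8 mitotic matches near the start are shown here, first the 100 bases before the start of Kif11 and then a stretch of 30 bases for each of the other 7, because these are the letters that set the mitotic windows beside the transport ones. The 100 bases before the RefSeq start of Kif17, the transport kinesin that rose, follow as a contrast. The annotated Kif17 gene begins upstream of that stretch, at base 138250435, and no window for Kif17 covered that upstream start. Capitals mark TTTGAA or its reverse complement TTCAAA, and in Kif11 also ATTGG, the reverse complement of CCAAT. All are written on the strand of the gene.
Kif11 (GRCm38.p6, chr19:37376282-37376381, plus strand): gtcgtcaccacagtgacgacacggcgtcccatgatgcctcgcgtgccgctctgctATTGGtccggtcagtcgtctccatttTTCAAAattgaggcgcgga
Kif18b (GRCm38.p6, chr11:102925104-102925133, minus strand): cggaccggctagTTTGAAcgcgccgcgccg
Kif22 (GRCm38.p6, chr7:127042420-127042449, minus strand): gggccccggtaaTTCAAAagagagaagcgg
Kif4 (GRCm38.p6, chrX:100626072-100626101, plus strand): ctctgggatcaaTTTGAAacttggcggtta
Kif15 (GRCm38.p6, chr9:122951050-122951079, plus strand): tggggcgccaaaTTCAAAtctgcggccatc
Kif20b (GRCm38.p6, chr19:34922353-34922382, plus strand): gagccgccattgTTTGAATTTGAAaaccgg
Kif23 (GRCm38.p6, chr9:61946780-61946809, minus strand): ctgattggcctgTTTGAAatgcgccgggcg
Kifc1 (GRCm38.p6, chr17:33890615-33890644, minus strand): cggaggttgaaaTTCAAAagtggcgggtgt
Kif17 (GRCm38.p6, chr4:138262151-138262250, plus strand): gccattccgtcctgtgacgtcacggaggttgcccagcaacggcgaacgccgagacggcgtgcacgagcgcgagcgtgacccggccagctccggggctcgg

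Kif20b carried 2 adjoining copies of TTTGAA just after its start. In Kif11 the match began 19 bases before the start, with the reversed CCAAT 45 bases before it. The CCAAT box, searched on both strands, stood in 8 of 12 mitotic, 4 of 13 transport and 4 of 11 other windows, beside 37.4% of all windows. The letters TTTNNCGC, a form of the E2F site, stood in 2 of the 12 mitotic windows (Kif15 and Kif18a), 1 of the 13 transport windows (Kif1a) and 5.2% of all windows. In the windows of the members no matches of different motifs shared a base, and the E2F match of Kif15 ended next to its TTTGAA match.

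The kinesins that act on the ends of spindle microtubules were among those that rose. Kif2c (ENSMUSG00000028678, GRCm38 chromosome 4, 117159639 to 117182639, minus strand) takes microtubules apart at centromeres and so frees wrongly attached chromosomes. Its level in WT replicates 1 to 5 was 7.86, 11.3, 8.999, 7.45 and 9.68 CPM, and in LAIR1KO replicates 1 to 5 it was 31.2, 37.9, 26.5, 43.5 and 55.0 CPM. The lowest LAIR1KO library stood above the highest WT library, which gave a log2 fold change of 2.10 (SE 0.20, edgeR adjusted p = 0.000222). Errors of fold changes are written as ± SE from here on. Kif18b (ENSMUSG00000051378, chromosome 11, 102905529 to 102925124, minus strand), which limits the length of astral microtubules, stood at 7.95, 8.16, 10.4, 12.8 and 9.84 CPM in WT and at 28.5, 34.8, 27.9, 44.3 and 34.1 CPM in LAIR1KO. The groups did not overlap, and the log2 fold change was 1.78 ± 0.18 (edgeR adjusted p = 0.000231). Kif18a (ENSMUSG00000027115, chromosome 2, 109280738 to 109341747, plus strand), which damps the movement of chromosomes at metaphase, had 6.11, 10.4, 5.73, 7.04 and 3.56 CPM in WT and 11.4, 19.4, 11.9, 27.8 and 18.1 CPM in LAIR1KO. The lowest LAIR1KO library was close to WT replicate 2, with no overlap, and the log2 fold change was 1.43 ± 0.30 (edgeR adjusted p = 0.0122). Without LAIR1KO replicates 4 and 5 it was 1.11 (adjusted p = 0.0826).

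The motors that push spindle poles apart also rose. Kif11 (ENSMUSG00000012443, chromosome 19, 37376403 to 37421859, plus strand), which slides antiparallel microtubules and so makes the spindle bipolar, stood at 13.6, 33.1, 21.1, 14.6 and 20.6 CPM in WT. Its LAIR1KO values were 50.04, 59.3, 33.6, 95.5 and 97.3 CPM. LAIR1KO replicate 3 and WT replicate 2 were almost level, LAIR1KO replicates 4 and 5 were far above the rest, and the log2 fold change was 1.70 ± 0.31 (edgeR adjusted p = 0.00550). It was 1.21 (adjusted p = 0.0423) without LAIR1KO replicates 4 and 5 and 1.43 (adjusted p = 0.0563) without WT replicates 1 and 4. Kif15 (ENSMUSG00000036768, chromosome 9, 122951046 to 123018733, plus strand), which can hold the spindle open beside Kif11, had 11.2, 21.8, 9.22, 12.1 and 18.05 CPM in WT and 29.4, 27.0, 20.6, 51.3 and 48.3 CPM in LAIR1KO. The groups overlapped, since LAIR1KO replicate 3 lay below WT replicate 2, and the log2 fold change was 1.29 ± 0.29 (edgeR adjusted p = 0.0178). Leaving out LAIR1KO replicate 4 alone gave 1.11 (adjusted p = 0.0516).

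Both chromokinesins, which bind chromosome arms, passed the threshold. Kif22 (ENSMUSG00000030677, chromosome 7, 127027729 to 127042471, minus strand) pushes the arms toward the spindle equator, and it stood at 20.7, 28.2, 23.0, 25.8 and 35.9 CPM in WT and at 56.9, 68.8, 46.3, 93.9 and 82.8 CPM in LAIR1KO. No LAIR1KO library reached down into the WT range, and the log2 fold change was 1.38 ± 0.20 (edgeR adjusted p = 0.00165). Kif4 (ENSMUSG00000034311, chromosome X, 100625737 to 100727214, plus strand), which also sets the length of the spindle midzone, had 11.6, 9.59, 7.29, 13.1 and 12.7 CPM in WT and 18.6, 25.7, 10.5, 43.1 and 35.4 CPM in LAIR1KO. LAIR1KO replicate 3 lay inside the WT range, the other LAIR1KO libraries above it, and the log2 fold change was 1.29 ± 0.32 (edgeR adjusted p = 0.0285). Kif4 was the called kinesin nearest the threshold after Kif23 and 6 of the 10 fits that leave out 1 library ended its call, where the adjusted p reached 0.0786. Without LAIR1KO replicates 4 and 5 its log2 fold change was 0.75. Its exons share 15.1% of their bases with Pdzd11 on the opposite strand, and Pdzd11 did not pass the test (log2 fold change 0.19 ± 0.11, adjusted p = 0.329). Reads of opposite strands could not be told apart, because the sources used here give no strand setting for the counting.

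The kinesins of the spindle midzone and cytokinesis were higher as well, with smaller changes for the most abundant ones. Kif20a (ENSMUSG00000003779, chromosome 18, 34624613 to 34633277, plus strand), which brings the chromosomal passenger complex to the midzone, stood at 13.4, 18.2, 14.5, 12.1 and 20.99 CPM in WT and at 36.6, 44.9, 36.2, 67.8 and 62.2 CPM in LAIR1KO. The groups were well apart, and the log2 fold change was 1.64 ± 0.21 (edgeR adjusted p = 0.000936). Its exons share 29.3% of their bases with Cdc23 on the opposite strand, whose own log2 fold change was 0.34 ± 0.12 (adjusted p = 0.117). Kif20b (ENSMUSG00000024795, chromosome 19, 34922361 to 34975745, plus strand), which acts in the last separation of the daughter cells, had 35.5, 20.96, 27.4, 25.5 and 29.4 CPM in WT and 41.6, 58.8, 45.0, 56.6 and 55.8 CPM in LAIR1KO. All LAIR1KO libraries lay above WT replicate 1, the highest of its group, and the log2 fold change was 0.89 ± 0.15 (edgeR adjusted p = 0.00418). Kif23 (ENSMUSG00000032254, chromosome 9, 61915905 to 61946774, minus strand), which forms the centralspindlin complex with Racgap1, stood at 37.0, 52.8, 41.3, 37.9 and 51.3 CPM in WT and at 57.1, 63.3, 55.0, 97.6 and 85.9 CPM in LAIR1KO. The ranges touched without overlap, and the log2 fold change of 0.70 ± 0.18 (edgeR adjusted p = 0.0301) was the smallest among the called members. Of the 10 fits that leave out 1 library 5 ended the call of Kif23, with an adjusted p of up to 0.0795, and without LAIR1KO replicates 4 and 5 its log2 fold change was 0.41 (adjusted p = 0.166).

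Kif14 (ENSMUSG00000041498, chromosome 1, 136466343 to 136531511, plus strand), which acts with citron kinase in cytokinesis, was the mitotic kinesin tested that was not called. It had 1.92, 4.12, 2.97, 3.31 and 0.775 CPM in WT and 4.41, 7.53, 2.06, 11.8 and 6.38 CPM in LAIR1KO, from 10 to 151 counts a library. LAIR1KO replicate 3 lay inside the WT range, and the log2 fold change was 1.29 ± 0.46 (95% interval 0.29 to 2.29; edgeR adjusted p = 0.123). Kif14 passed without LAIR1KO replicate 3 (log2 fold change 1.51, adjusted p = 0.0411). With Kif24, one of the other kinesins, it lay nearest the threshold on the outer side, and Kif4 and Kif23 lay nearest on the inner side.

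Neither remaining mitotic kinesin could be tested. Kif2b, a depolymerising kinesin close to Kif2c, had 0 counts in all 10 libraries, which at 3 counts per library allows up to 0.192 to 0.252 CPM. Kifc1, a motor that focuses spindle poles, held 0 to 9 counts a library, 0 or 1 in each WT library and 1, 3, 4, 5 and 9 in LAIR1KO replicates 1 to 5. Of the 50-base stretches of its transcripts 38.6% also occur in Kifc5b, a near-identical copy, so its counts are uncertain. With no filter the log2 fold change of Kifc1 was 2.54 (adjusted p = 0.260), and with the counts of Kifc1 and Kifc5b summed it was 0.75 (adjusted p = 0.351).

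**Figure D2:**
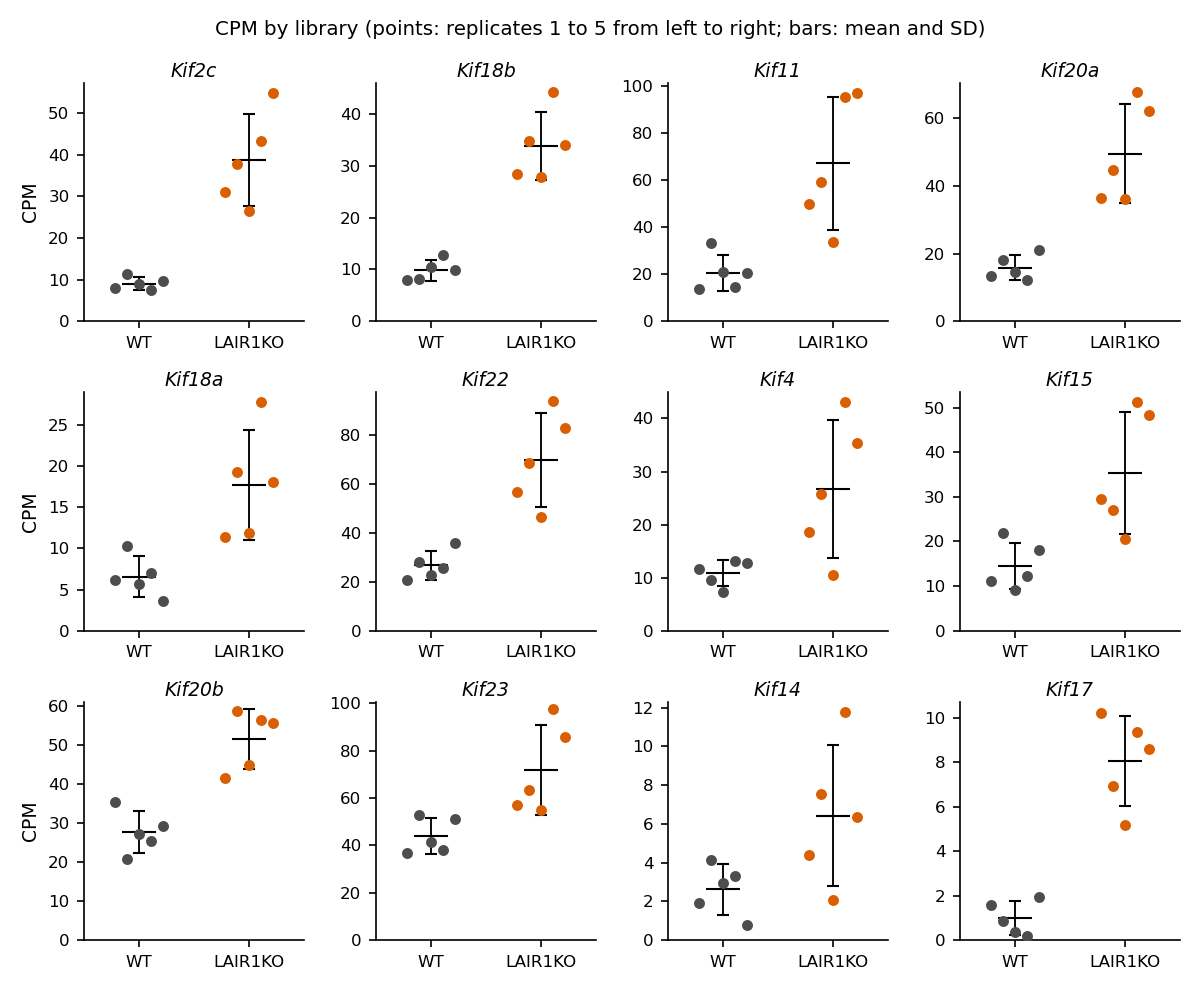
CPM of the 10 called mitotic kinesins, Kif14 and Kif17 in each library (y axis, starting at 0), with 5 points per group for replicates 1 to 5 and bars for the mean and SD. LAIR1KO replicate 3 is the lowest LAIR1KO point in most panels, and in Kif4, Kif14 and Kif15 it falls inside the WT range.

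The libraries of LAIR1KO kept a similar order across the mitotic kinesins. LAIR1KO replicate 4 was the highest of its group for 8 of the 11 tested and replicate 5 for 2, while LAIR1KO replicate 3 was the lowest for 9 and replicate 1 for 2. Among WT libraries, replicate 2 was the highest for 6. Against the WT mean, the median log2 difference of the 11 genes was 0.78 in LAIR1KO replicate 3, the smallest of its group, and 2.12 in LAIR1KO replicate 4, the largest. For the 14 transport kinesins the same median ran from -0.36 to 0.06 over the LAIR1KO libraries.

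**Figure D3:**
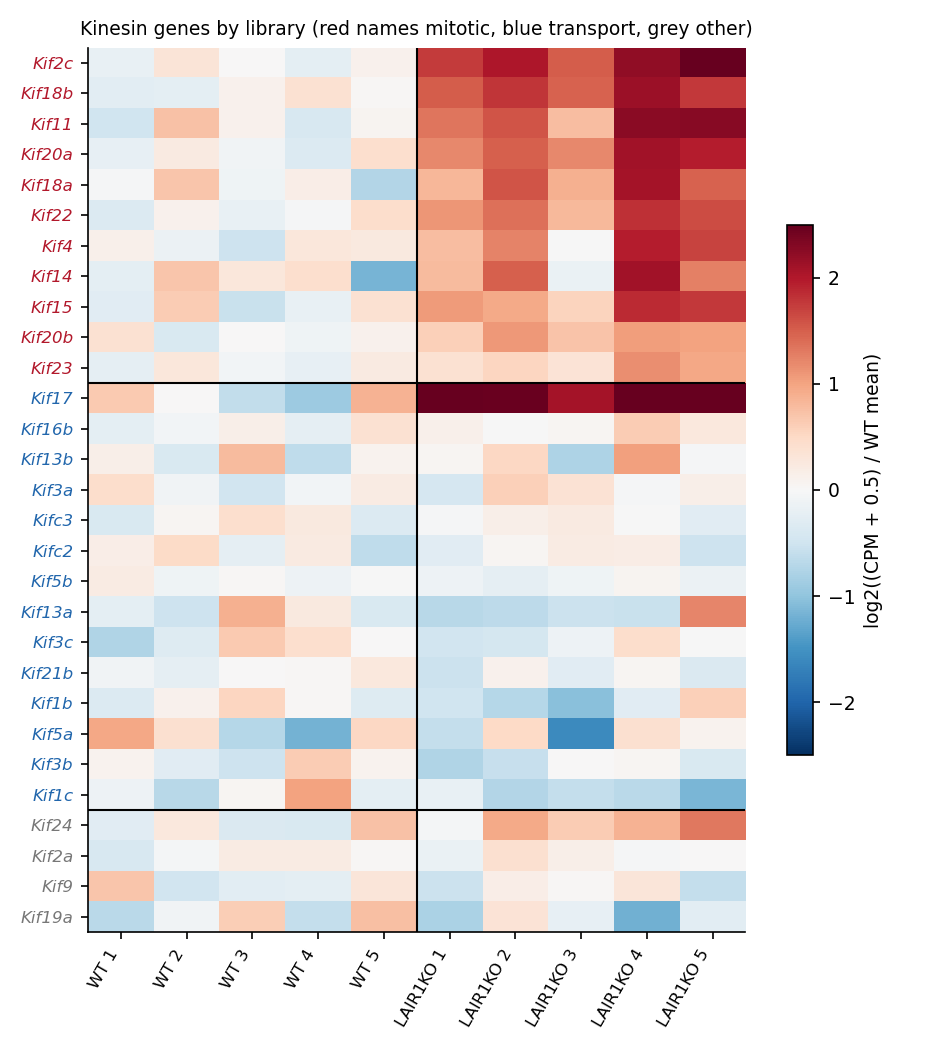
Each tested kinesin (rows) in each library (columns), as log2 of CPM plus 0.5 relative to the mean of the WT libraries; red is higher and blue lower, with colours ending at 2.5 in either direction. The mitotic rows and Kif17 are red across LAIR1KO except Kif4 and Kif14 in replicate 3, where they are near or below the WT mean, and the other transport rows show no common colour in either group.

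Among the transport kinesins the most abundant per length were conventional kinesin and others that serve vesicles and endosomes, and none of these moved past the threshold. Kif5b (ENSMUSG00000006740, chromosome 18, 6201002 to 6242174, minus strand), the broadly expressed heavy chain of conventional kinesin, stood at 258, 208, 229, 204 and 222 CPM in WT and at 204, 192, 209, 233 and 203 CPM in LAIR1KO. The groups overlapped almost fully, with a log2 fold change of -0.11 ± 0.09 (95% interval -0.30 to 0.09; edgeR adjusted p = 0.537). That interval ends below the smallest change among the mitotic kinesins, 0.70 for Kif23, and with libraries scaled by their totals the value for Kif5b was 0.0239. Kif21b (ENSMUSG00000041642, chromosome 1, 136131389 to 136177998, plus strand), a motor that also slows microtubule growth, had 79.5, 72.2, 84.1, 86.3 and 101 CPM in WT and 58.1, 90.2, 68.8, 87.5 and 65.1 CPM in LAIR1KO. Its ranges overlapped, with a log2 fold change of -0.20 ± 0.14 (95% interval -0.49 to 0.10; adjusted p = 0.449).

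The subunits of the heterotrimeric kinesin, which builds cilia and carries vesicles, did not pass the test. Kif3b (ENSMUSG00000027475, chromosome 2, 153291413 to 153333390, plus strand) had 33.4, 25.7, 21.7, 49.3 and 33.2 CPM in WT and 18.3, 20.98, 31.6, 32.4 and 24.0 CPM in LAIR1KO. WT replicate 4 was the highest, and the log2 fold change was -0.36 ± 0.22 (95% interval -0.84 to 0.12; edgeR adjusted p = 0.383). Kif3a (ENSMUSG00000018395, chromosome 11, 53567379 to 53601967, plus strand), its partner, had 9.87, 6.73, 4.98, 6.83 and 8.29 CPM in WT and 5.24, 11.1, 9.35, 7.01 and 7.97 CPM in LAIR1KO, with a log2 fold change of 0.15 ± 0.24 (adjusted p = 0.770). Kif3c, the alternative subunit, stood at -0.18 ± 0.28 (adjusted p = 0.760), and its exons share 35.3% of their bases with an antisense gene. All 3 overlapped between groups.

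Kif16b (ENSMUSG00000038844, chromosome 2, 142617474 to 142901531, minus strand), which moves early endosomes, had 26.3, 29.5, 34.4, 26.5 and 40.4 CPM in WT and 33.7, 30.7, 32.3, 48.7 and 37.5 CPM in LAIR1KO. Its log2 fold change was 0.22 ± 0.16 (95% interval -0.13 to 0.57; edgeR adjusted p = 0.473), with overlapping groups. Kifc3 (ENSMUSG00000031788, chromosome 8, 95099828 to 95202812, minus strand), a motor that moves toward microtubule minus ends, had 19.7, 26.3, 34.6, 30.6 and 20.1 CPM in WT and 24.9, 28.5, 29.9, 25.5 and 20.9 CPM in LAIR1KO. The log2 fold change was -0.02 ± 0.17 (adjusted p = 0.973), and its sign turned under several alternatives.

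The other transport kinesins tested spread around zero with wider intervals. Kif1c, a vesicle motor known at macrophage podosomes, had the lowest value, with 3.76, 2.36, 4.31, 8.83 and 3.41 CPM in WT and 3.58, 2.29, 2.59, 2.41 and 1.59 CPM in LAIR1KO. WT replicate 4 stood apart above all others, and the log2 fold change of -0.86 ± 0.35 did not pass (edgeR adjusted p = 0.174). Kif1b, Kif5a, Kif13a, Kif13b and Kifc2 lay between -0.35 and 0.20, with adjusted p-values of 0.566 to 0.906. Kif13a had 1 high library, LAIR1KO replicate 5 at 32.0 CPM against 8.18 to 9.08 CPM in the other LAIR1KO libraries. Kif5a, a neuronal heavy chain, held 2 to 39 counts a library and did not pass the filter in all libraries of either group.

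The 3 transport kinesins that could not be tested are best known from neurons or other tissues. Kif1a had 20 counts in WT replicate 4 and 0 in the other 9 libraries. Kif5c had 43 counts in WT replicate 2, 19 in WT replicate 4 and at most 8 elsewhere. Kif21a had 16 counts in LAIR1KO replicate 5, 1 in WT replicate 2 and 0 in the rest. Each of these genes thus owed most of its counts to 1 or 2 libraries.

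Kif17 was the transport kinesin that rose, and its fold change was the largest of all members. Kif17 (ENSMUSG00000028758, chromosome 4, 138250435 to 138301967, plus strand), a homodimeric motor known from dendrites and cilia, stood at 1.59, 0.842, 0.372, 0.207 and 1.94 CPM in WT and at 10.2, 6.93, 5.17, 9.35 and 8.62 CPM in LAIR1KO. These values rest on 3 to 25 counts in the WT libraries and 78 to 160 in the LAIR1KO libraries. The groups were apart by a wide margin, LAIR1KO replicate 1 was the highest and replicate 3 the lowest, and the log2 fold change was 3.03 ± 0.46 (95% interval 2.03 to 4.03; edgeR adjusted p = 0.00212). Kif17 entered the test through its LAIR1KO values, since it did not pass the filter on low counts in every WT library; with no filter its log2 fold change was again 3.03. It kept its call in every alternative run, with a log2 fold change of 2.92 without LAIR1KO replicates 4 and 5.

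Sh2d5, which starts beside the upstream first exon of Kif17 on the same strand and shares 74 exon bases with it (1.62% of the Kif17 exons), was also higher. Sh2d5 had 3.35, 10.2, 6.47, 5.45 and 9.60 CPM in WT and 26.5, 30.9, 12.2, 28.3 and 31.3 CPM in LAIR1KO, with a log2 fold change of 1.88 ± 0.31 (edgeR adjusted p = 0.00353). The sources used here do not say how shared reads were assigned. Of the other tested genes within 100 kb of Kif17, which were looked at after its value was seen, Eif4g3, Hp1bp3, Ddost and Pink1 did not pass (log2 fold changes of -0.58 to 0.26).

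The other kinesins held low counts or none. Kif24, which acts at centrioles and restrains the growth of cilia, had 3.35, 5.13, 3.12, 3.10 and 7.28 CPM in WT and 4.03, 8.54, 6.76, 8.02 and 11.1 CPM in LAIR1KO. The groups overlapped through WT replicate 5 and LAIR1KO replicate 1, and the log2 fold change was 0.80 ± 0.31 (edgeR adjusted p = 0.151). Kif24 shares 5.03% of its 50-base stretches with other genes. Kif2a, a depolymerising kinesin of spindle poles and neurons, had 10.3 ± 1.74 CPM in WT and 10.8 ± 1.76 CPM without LAIR1 (SD, n = 5 each), with a log2 fold change of 0.07 ± 0.17 (adjusted p = 0.865). Counting Kif2a among the mitotic kinesins gave 10 called of 14 members. The 2 remaining tested members, Kif9 of sperm flagella and Kif19a of cilia, had log2 fold changes of -0.16 ± 0.29 and -0.58 ± 0.48. Kif6, Kif12, Kif26a and Kif27 had 0 counts in all libraries, Kif26b had at most 2 counts a library, and Kif7, a regulator of Hedgehog signalling in cilia, had 0 to 32.

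Per length of exon, the balance of the family shifted toward the mitotic members. Levels of different genes were compared as CPM per kilobase of exon. In WT the order was Kif5b at 28.1 ± 2.70, then Kif21b at 6.95 ± 0.87, Kif3b at 5.79 ± 1.87, Kif23 at 5.57 ± 0.95 and Kif22 at 5.45 ± 1.20 CPM per kilobase (SD, n = 5 each). Each of the latter 4 differed from its neighbour in this order by less than the larger of the 2 SDs. In LAIR1KO, Kif5b stayed first at 26.1 ± 1.93, followed by the mitotic Kif22 at 14.2 ± 3.91, Kif20a at 11.4 ± 3.38, Kif18b at 9.501 ± 1.85 and Kif23 at 9.08 ± 2.40 CPM per kilobase. Kif11 and Kif2c came next, within 1 SD of Kif23. Of the 10 members with the highest level per length, 5 were mitotic in WT and 7 in LAIR1KO. Over all libraries the number was 7, also with the longest transcript taken as the length.

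**Figure D4:**
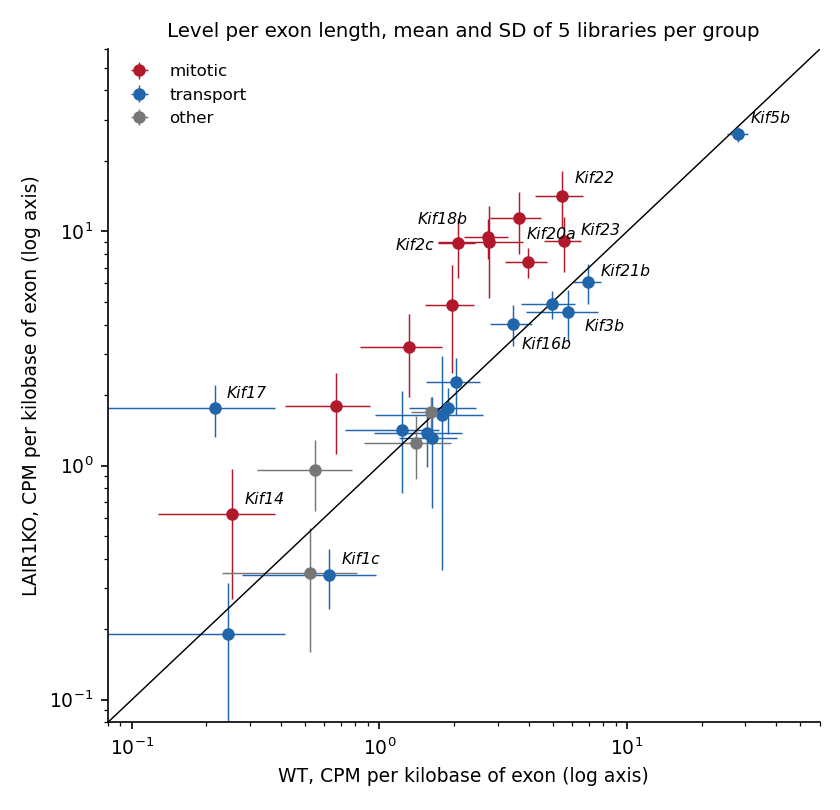
Mean level of each tested kinesin in WT (x axis) and LAIR1KO (y axis), in CPM per kilobase of exon on log axes, with SD bars over 5 libraries per group; the line marks equal levels. The mitotic kinesins lie above the line, Kif5b and most transport kinesins lie on or near it, and Kif17 lies far above it at a low level.

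Summed over members, the mitotic kinesins stood at 167, 219, 172, 172 and 213 CPM in WT and at 366, 448, 316, 634 and 582 CPM in LAIR1KO, means of 188 ± 25.1 and 469 ± 136 CPM and a ratio of 2.49. All LAIR1KO libraries lay above all WT libraries. The transport kinesins summed to 500.3, 447, 531, 493 and 497 CPM in WT and to 417, 447, 438, 535 and 477 CPM in LAIR1KO, means of 494 ± 29.9 and 463 ± 45.6 CPM and a ratio of 0.937. These ranges overlapped. As a share of the summed CPM per kilobase of all 40 members, the mitotic kinesins made up 28.8% to 36.6% in the WT libraries and 47.3% to 61.1% in the LAIR1KO libraries. These sums give more weight to abundant members and carry no test.

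Most genes of proteins that work with mitotic kinesins rose in the same comparison. Of 22 spindle and midzone genes listed, all tested, 17 were higher and 0 lower, with a median log2 fold change of 1.22. Aurka, a kinase of spindle poles, had a log2 fold change of 1.08 ± 0.14 (edgeR adjusted p = 0.000934). Nusap1, Hmmr, Aurkb, Tpx2 and Cdca8, which bundle or nucleate spindle microtubules or belong to the chromosomal passenger complex, lay between 1.15 and 1.65. Cenpe, itself a kinesin that carries chromosomes to the spindle equator, stood at 19.6 ± 6.202 CPM in WT against 47.7 ± 9.90 CPM without LAIR1 (SD, n = 5 each), with a log2 fold change of 1.28 ± 0.21 (adjusted p = 0.00353). Racgap1, the partner of Kif23, had 0.69 ± 0.14 (adjusted p = 0.00937), close to the 0.70 of Kif23. The most abundant, Mapre1, which marks growing microtubule ends in all cells, had -0.13 ± 0.08 (adjusted p = 0.370).

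Adaptors of the transport kinesins mostly did not pass. Of 20 listed, 16 were tested, 1 was higher and 0 lower, with a median log2 fold change of -0.10. The light chains Klc1, Klc2 and Klc4, which couple conventional kinesin to cargo, lay between -0.22 and -0.06. Map7, which recruits conventional kinesin to microtubules, was the gene called, with 2.66 ± 1.20 CPM in WT against 9.19 ± 2.90 CPM in LAIR1KO (SD, n = 5 each; log2 fold change 1.78 ± 0.35, edgeR adjusted p = 0.00937). Map7d1, the most abundant of them, had 155 ± 58.2 and 113 ± 27.3 CPM and did not pass (adjusted p = 0.272).

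Cytoplasmic dynein and dynactin, which carry cargo in the direction opposite to most kinesins, had 1 called gene. Of 26 listed genes 25 were tested, 1 was higher and 0 lower, with a median of -0.10. Bicd1, a dynein adaptor, was the gene called (log2 fold change 1.88 ± 0.48, edgeR adjusted p = 0.0344). It had 0.850 ± 0.541 CPM in WT against 3.17 ± 0.938 CPM in LAIR1KO (SD, n = 5 each). Its WT level lay near the filter on low counts, so its entry into the test may rest on its LAIR1KO values. Actr1a, the main filament subunit of dynactin and the most abundant of the list, had -0.14 ± 0.10 (adjusted p = 0.444).

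Tubulins, the track of the motors, split by isotype. Of 17 listed 13 were tested, 5 were higher and 1 lower, with a median of 0.37. Tuba4a, at 147 ± 14.7 and 253 ± 41.2 CPM (SD, n = 5 each), had a log2 fold change of 0.78 ± 0.12 (edgeR adjusted p = 0.00245). Tubb5, the common beta-tubulin of dividing cells, had 0.67 ± 0.13, and Tubb4b, Tubg1 and Tube1 were also higher, at 0.52 to 1.02. Tubb2a fell by 0.65 on the log2 scale (SE 0.16, adjusted p = 0.0260). Tubb6, next to Tuba4a in abundance, had -0.29 ± 0.22 (adjusted p = 0.487).

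Other cell cycle genes and markers of myeloid progenitors moved with the mitotic kinesins. Of 10 cell cycle genes 9 were higher, with a median log2 fold change of 1.41 beside 1.38 for the mitotic kinesins. Pcna was the gene not called (log2 fold change 0.27 ± 0.20, edgeR adjusted p = 0.468), and its groups overlapped. Mki67, a marker of cycling cells, stood at 40.2, 45.2, 33.2, 32.2 and 46.6 CPM in WT and at 90.9, 87.8, 79.8, 124 and 119 CPM in LAIR1KO, so that LAIR1KO replicates 4 and 5 were again the highest and replicate 3 the lowest. All 10 myeloid progenitor markers were higher, and their summed level ran from 542 to 1425 CPM in WT and from 3232 to 6877 CPM in LAIR1KO. None of these markers was at 0 in all libraries, LAIR1KO replicates 4 and 5 had the highest sums and replicate 3 the lowest of LAIR1KO, and Mpo was the most abundant (518 ± 233 and 3401 ± 1142 CPM; SD, n = 5 each). The 12 markers of nonclassical monocytes, led by Csf1r, included 0 called genes, although all 12 had a log2 fold change below 0 with TMM scaling (median -0.25), with sums of 17019 to 18652 CPM in WT and 12641 to 18956 CPM in LAIR1KO. The part of progenitor cells in the kinesin values was not tested.

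**Figure D5:**
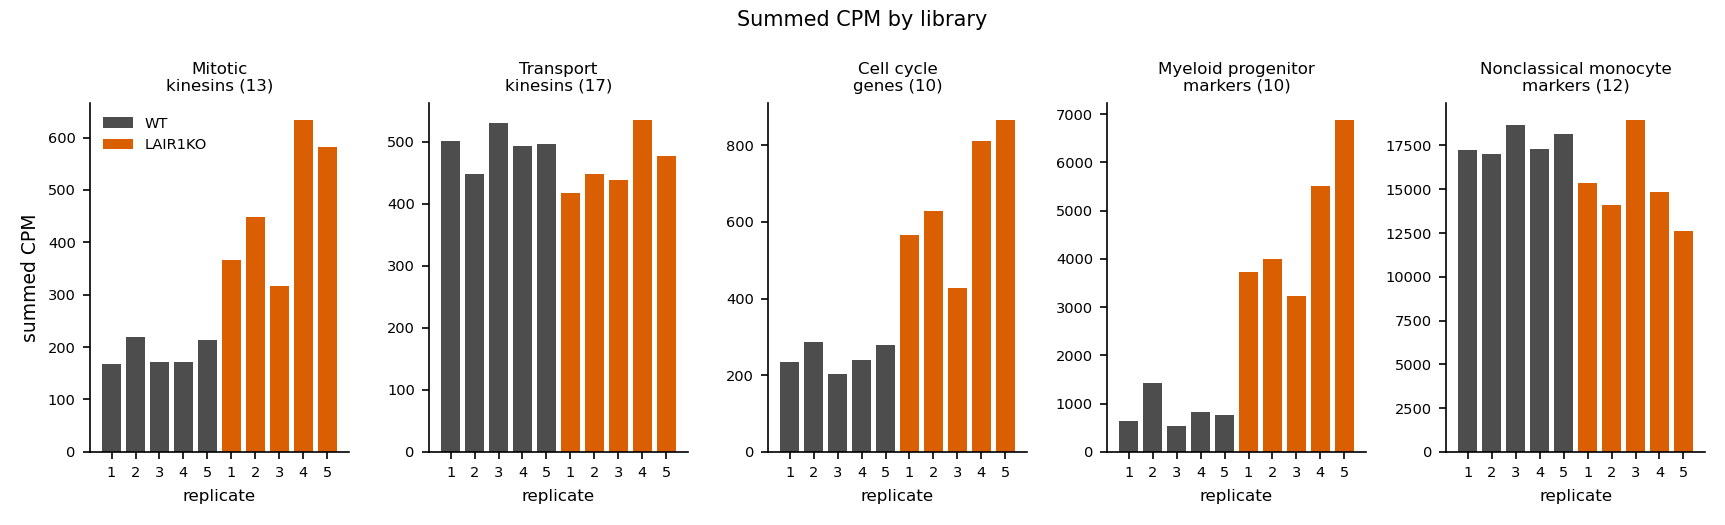
Summed CPM (y axes starting at 0) per library, replicates 1 to 5 of WT in grey and of LAIR1KO in orange, for the mitotic kinesins, the transport kinesins, 10 cell cycle genes, 10 myeloid progenitor markers and 12 nonclassical monocyte markers. LAIR1KO replicates 4 and 5 are the highest and replicate 3 the lowest LAIR1KO library for the mitotic kinesins, the cell cycle genes and the progenitor markers.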

How the data were processed

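Per the labels' protocols, RNA was extracted from sorted cells and sequenced by a low-input method. GSNAP and the build GRCm38.p5 are named in the submitters' processing notes. The sources used here give no aligner version, counting tool, annotation release, strand setting or read filter. The authors deposited 1 table of raw read counts with 52636 genes and 10 columns, and sample titles identified all 10 columns.

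Names, positions and exon lengths were taken from GENCODE M21 (GRCm38), where 52489 of the gene identifiers and all 40 members were found. Promoter windows came from RefSeq (GRCm38.p6) and were matched by symbol. The test used edgeR 4.0.16 in R 4.3.3, with genes kept by filterByExpr (minimum count 10, minimum total 15), TMM scaling, and the quasi-likelihood test of LAIR1KO against WT with no covariate and Benjamini-Hochberg adjustment over 13469 genes. Adjusted p-values of single genes in the text are two-sided and come from that test. The SE is the fold change over the root of the F statistic, and intervals are 95%. Limits for 0 counts cover counting error only. No replicate libraries agreed within sampling noise, so none was treated as the same library deposited again; this does not show that they are separate animals.

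The members and all gene lists were chosen with earlier results of these data known. Values in every library are given for each kinesin called, the 6 transport kinesins of highest level per length, the 2 members on either side of the threshold and members opposite in sign to their role group with an unadjusted p under 0.05; Kif1c was added for its low value after it was seen. Up to 6 called genes of each partner list and its most abundant member were named, and of each marker list the most abundant member.

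Alternatives were RLE and upper-quartile scaling, library totals, no filter, 1 CPM in at least 5 libraries, DESeq2 1.42.0, limma voom (limma 3.58.1), a block for the replicate number, each library left out, LAIR1KO replicates 4 and 5 or WT replicates 1 and 4 left out together, removal of the GC and length trend, other role groups, and the longest transcript as length. Summing Kifc1 with Kifc5b was added after the data were seen. The procedure was tested on simulated counts. No set test was run. Some results on single genes are not reported here.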

Additional observations from a re-analysis of the deposited data

Results flagged for a closer look

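The summed level of the 10 other kinesins was unusual in 1 library. WT replicate 5 stood at 5.434 CPM per kilobase, and the nearest of the other WT libraries stood at 4.114. The gap was 0.718 of the whole WT range, above the critical value for 5 samples, which chance passes in about 1 of 20 groups. Sums were computed for many lists in both groups, so some gaps of this size would arise by chance. The erythroid markers also held a wide gap, with WT replicate 2 at 1691 CPM per kilobase and WT replicate 3, the next highest, at 424. Kif24 (7.28 CPM), Kif7 (20 counts) and Kif19a (3.56 CPM) were the highest of WT in this library.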

How the results depend on the processing

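All 11 tested mitotic kinesins had a log2 fold change above 0 in every alternative run. Over the fits that leave out 1 library, the count of mitotic kinesins called ran from 7 to 11, their median log2 fold change from 1.21 to 1.51, and the transport median from -0.192 to -0.0455. In these fits the count of all genes ran from 422 to 789 higher and from 113 to 381 lower, against 688 and 226. Without LAIR1KO replicates 4 and 5 together there were 236 higher and 140 lower genes, 6 mitotic kinesins called, a mitotic median of 1.10 and a transport median of -0.19; without WT replicates 1 and 4 there were 266 higher and 72 lower genes and 5 mitotic kinesins called. Library totals gave 1243 higher and 136 lower genes and a transport median of 0.0227, so that 90.1% of calls were higher against 75.3%. DESeq2 gave 513 lower genes, and the share higher was 66.3%. Removing the GC and length trend gave a transport median of -0.18 and 65.6% of calls higher. Sign changes were seen for Kif5b with library totals (0.0239) and for Kifc3 with library totals (0.11), voom (0.0024), the replicate block (0.0069), LAIR1KO replicates 4 and 5 left out (0.0781), the trend removed (0.0157) and 1 library left out (-0.11 to 0.10). Kif4 also lost its call with voom (adjusted p = 0.0839). The cause of these changes was not tested.

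With the replicate number as a block, 122 genes were lower and Kif23 lost its call (adjusted p = 0.0539), and no other kinesin changed its call. Libraries of the same number did not deviate together (correlations of -0.08 to 0.05), so the number was taken as a name only. Depth limits Kifc1, Kif1a, Kif5c, Kif21a, Kif7 and Kif26b, whose counts were too low to test.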

Other observations

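Markers of other cells that the sort could hold moved in both directions. Of 9 macrophage markers 7 were lower in LAIR1KO, and their summed level was 1553 to 2093 CPM in WT and 855 to 1078 CPM in LAIR1KO, with Adgre1 the most abundant (912.5 ± 77.1 and 716 ± 121 CPM; SD, n = 5 each). Of 10 erythroid markers 4 were lower, all of them globin genes, and the sum was 86.4 to 1307 CPM in WT and 40.01 to 118 CPM in LAIR1KO. The 1307 CPM came from WT replicate 2 alone, and WT replicate 3, the next highest, had 329 CPM. All 4 globin genes overlapped between groups. Among classical monocyte markers F13a1 was higher, while Ccr2, the most abundant, had 648 ± 187 CPM in WT and 423 ± 59.4 CPM in LAIR1KO and was not called. Of 6 dendritic cell markers Siglech and Clec9a were lower, and Tcf4 was the most abundant (113 ± 5.35 and 94.7 ± 13.7 CPM). Of 9 neutrophil markers, all tested and led by Ngp, and of 10 B cell markers, 6 of them tested and led by Cd79b, 0 were called. Of 5 megakaryocyte markers 3 were tested and Pf4 was lower. Of 5 eosinophil, basophil and mast cell markers 4 were tested and Prg2 was higher. Both genes overlapped between groups. The megakaryocyte sum was 152 CPM in WT replicate 5, 7.07 to 27.9 CPM in the other WT libraries and 3.25 to 11.6 CPM in LAIR1KO. The eosinophil, basophil and mast cell sum was 1.08 to 65.5 CPM in WT and 26.1 to 130 CPM in LAIR1KO. Of 7 T and NK cell markers only Nkg7 was tested, and it was higher with overlapping groups. None of the markers listed was at 0 in all libraries, and the part of these cells in the kinesin values was not tested.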
